A study of Mus musculus with 27 samples.

Results

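The 50 genes described here encode the extracellular and membrane side of Wnt signalling, together with 4 genes that canonical signalling switches on. They were chosen by name from the 27080 genes listed in the deposited count tables, by a rule that uses no measured value. They comprise 19 Wnt ligands, 12 receptors and co-receptors (10 Frizzled receptors, Lrp5 and Lrp6), 7 R-spondins and Lgr receptors, 8 secreted antagonists (Dkk1 to Dkk4, Sfrp1, Sfrp2, Sfrp5 and Frzb), and the feedback targets Axin2, Nkd1, Nkd2 and Notum. All 50 were listed in each of the 3 tables.

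Wnt ligands are lipid-modified secreted proteins. They bind a Frizzled receptor together with the co-receptor Lrp5 or Lrp6, which stops the degradation of β-catenin and lets it act with Tcf and Lef factors on target genes. R-spondins bound to Lgr receptors raise the amount of Frizzled at the cell surface, Dkk proteins block Lrp5 and Lrp6, and Sfrp proteins and Frzb bind Wnt ligands outside the cell. In mouse embryonic stem cells (mESCs) the pathway is known to favour self-renewal, and in the embryo it is needed for the primitive streak and mesoderm.

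RNA-seq was available for 12 libraries of J1 cells, a mouse ESC line grown without feeders in serum and leukemia inhibitory factor (LIF). Gas41 (gene symbol Yeats4) encodes a reader of acetylated histones that was depleted with a lentiviral shRNA, shGas41-1 (3 libraries) or shGas41-2 (2 libraries), under puromycin selection, and the knockdown (KD) cells were harvested 8 days after infection. Control cells carried a control shRNA vector (shNT, 3 libraries). Control cells with the same vector were also sampled while undifferentiated in LIF (embryoid body (EB) day 0, 2 libraries) or after 6 days as EBs in suspension without LIF (EB day 6, 2 libraries), so that all 12 libraries came from cells infected with an shRNA vector. The labels do not say whether replicates were separate infections or cultures, and the p-values therefore measure only the spread between these libraries.

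The libraries held between 59224537 and 81524773 counts, and 3 counts corresponded to between 0.0368 and 0.0507 counts per 1000000 counts (CPM). Yeats4 stood at 63.2, 54.5 and 52.1 CPM with shNT, 3.50, 4.42 and 4.79 CPM with shGas41-1 and 8.68 and 7.67 CPM with shGas41-2, so every KD library lay below every control library. The summed level of 8 pluripotency genes (Pou5f1, Nanog, Sox2, Zfp42, Esrrb, Klf4, Tfcp2l1, Dppa3) was 5658 to 6088 CPM with shNT, 4734 to 5224 CPM with shGas41-1, 5343 to 5533 CPM with shGas41-2, 5667 to 5859 CPM at EB day 0 and 1226 to 1572 CPM at EB day 6, and none of the 8 was at 0 in any library. The genes of this sum differed: with shGas41-1 Esrrb (-1.04), Klf4 (-1.13) and Tfcp2l1 (-1.55) fell and Dppa3 rose (2.90) on the log2 scale, and the other 4 were not called. With shGas41-2, 0 of the 8 were called, and these 4 genes had values of -0.44, -0.65, -0.83 and 1.15. The library shGas41-1 replicate 3 stood apart from its group, with chi-square values per degree of freedom of 144 and 236 against the other 2 libraries, compared with 35.7 between those 2. Between the shNT libraries the values were 30.6, 35.3 and, for replicates 1 and 3, 81.3. Counts of members called with shGas41-1 are therefore also given without its replicate 3.

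The shNT cells expressed receptors at high levels and ligands at low levels. In shNT cells 11 of the 12 receptors but only 4 of the 19 ligands had a mean of 1 CPM or more, against 12 receptors and 12 ligands at EB day 6. For comparison between genes, CPM were divided by the exon length of each gene in kilobases. On this per-length scale the 10 Frizzled receptors summed to 71.1 ± 10.6 (SD, n = 3) CPM per kb in shNT cells, the 8 secreted antagonists to 50.9 ± 5.38 (SD, n = 3) and the 19 ligands to 3.55 ± 0.340 (SD, n = 3). At EB day 6 the corresponding sums were 113 ± 16.6 (SD, n = 2), 60.4 ± 28.8 (SD, n = 2) and 68.4 ± 10.1 (SD, n = 2) CPM per kb. In bulk RNA, a change in the share of cells that express a gene and a change in the RNA per cell cannot be told apart.

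**Figure D1:**
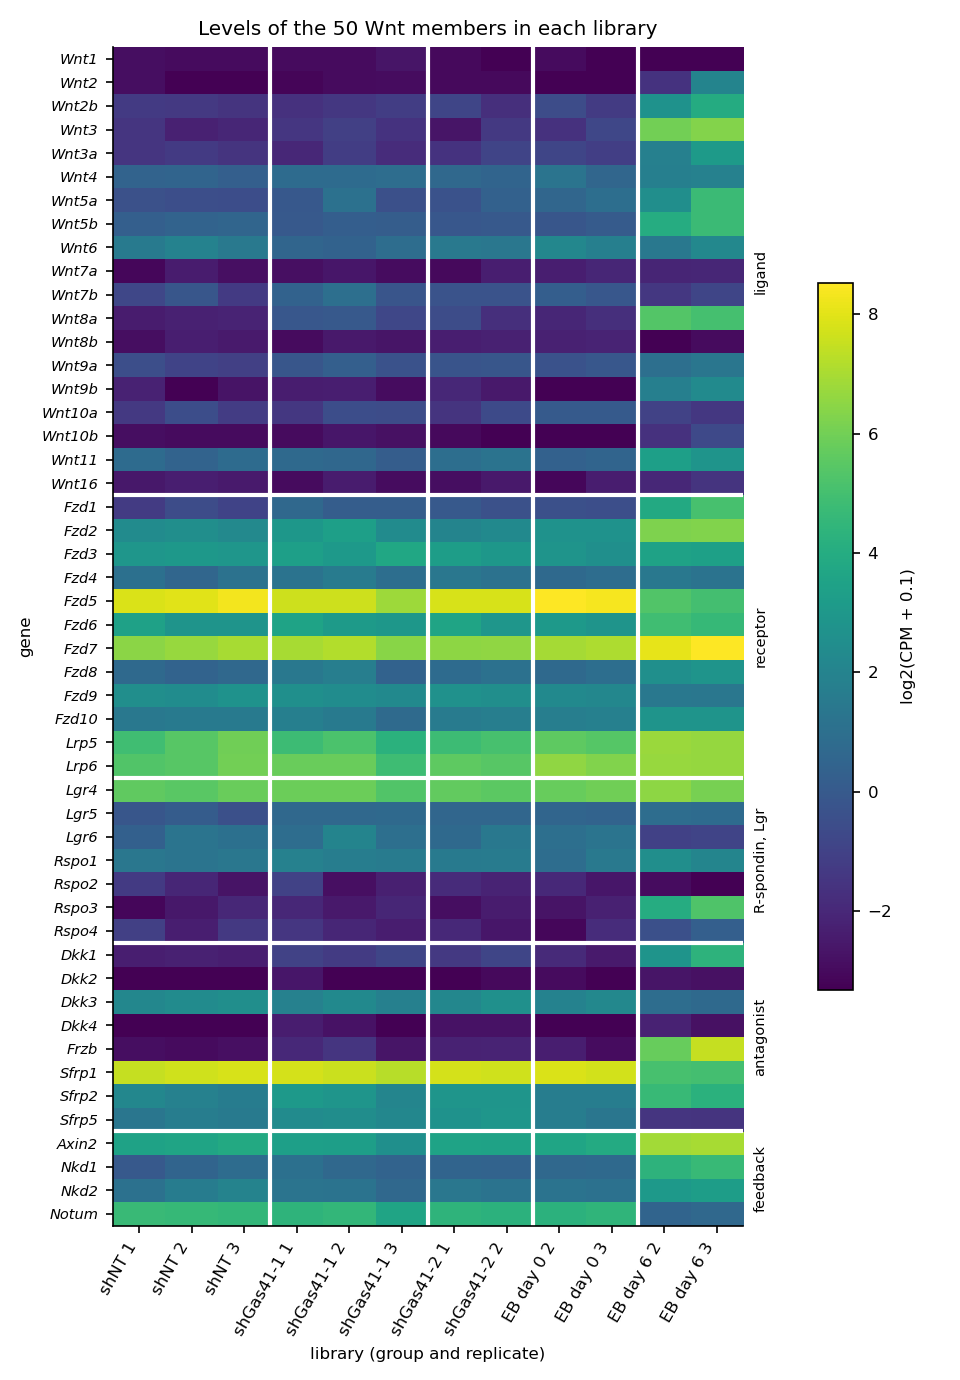
Levels of the 50 Wnt genes (rows, grouped by role) in the 12 libraries (columns), as log2(CPM + 0.1). Fzd5 and Sfrp1 are among the brightest rows in the 10 libraries other than EB day 6 and darken in both EB day 6 libraries, whereas Wnt3, Wnt8a, Rspo3 and Frzb are near the lowest colours in ESCs and bright at EB day 6.

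The first question was which of these genes respond to depletion of Gas41. Few were called, and a gene that was not called or not tested is not shown to be unchanged. A gene was called at a false discovery rate (FDR) of 0.05 or less and a change of 2-fold or more in edgeR's quasi-likelihood test, and 39 of the 50 members had enough counts to be tested with either shRNA. With shGas41-1, 3 members rose (Wnt8a, Dkk1 and Fzd1) and 0 fell, where 7.9% of all 18274 genes tested rose and 2.4% fell. With shGas41-2, 3 members rose (Dkk1, Sfrp2 and Sfrp5) and 0 fell, against 3.96% and 0.869% of 18405 genes. The 3 members that rose were 7.69% of those tested with either shRNA, which is near the share of all genes with shGas41-1 and above it with shGas41-2. In either direction, 10.3% and 4.82% of all genes were called. By the FDR alone, 7 and 3 members passed, against 18.5% and 9.91% of all genes. At an unadjusted p under 0.05, 14 members were higher and 4 lower with shGas41-1, where 3463 and 2942 of 18274 genes were. With shGas41-2, 7 members were higher and 0 lower, where 2737 and 2472 of 18405 genes were. DESeq2 called 1 member down with shGas41-1 (Wnt6) and 0 with shGas41-2. The median log2 fold change over the 39 members tested was 0.26 with shGas41-1 and 0.27 with shGas41-2, and over all genes it was 0.02 and -0.013. Without the library shGas41-1 replicate 3, 7 members rose (Wnt8a, Wnt7b, Dkk1, Frzb, Sfrp2, Fzd8 and Fzd1) and 1 fell (Wnt6) of 41 tested, or 17.1% and 2.44%, against 7.37% and 2.21% of all genes. Frzb, at 2, 2 and 3 counts with shNT and 12 and 20 with shGas41-1, was not tested in the main fit. Genes that pass the filter on low counts only through KD libraries, such as Frzb, Dkk1 and Wnt8a, can hardly be called down. The share that rose is therefore not read as an excess. Without shGas41-1 replicate 3, 11 members and 20.6% of all genes passed the FDR. At an unadjusted p under 0.05, 14 members were then higher and 2 lower, where 3442 and 3320 of 18676 genes were. The median log2 fold change in that fit was 0.35 over the members tested and -0.005 over all genes.

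**Figure D2:**
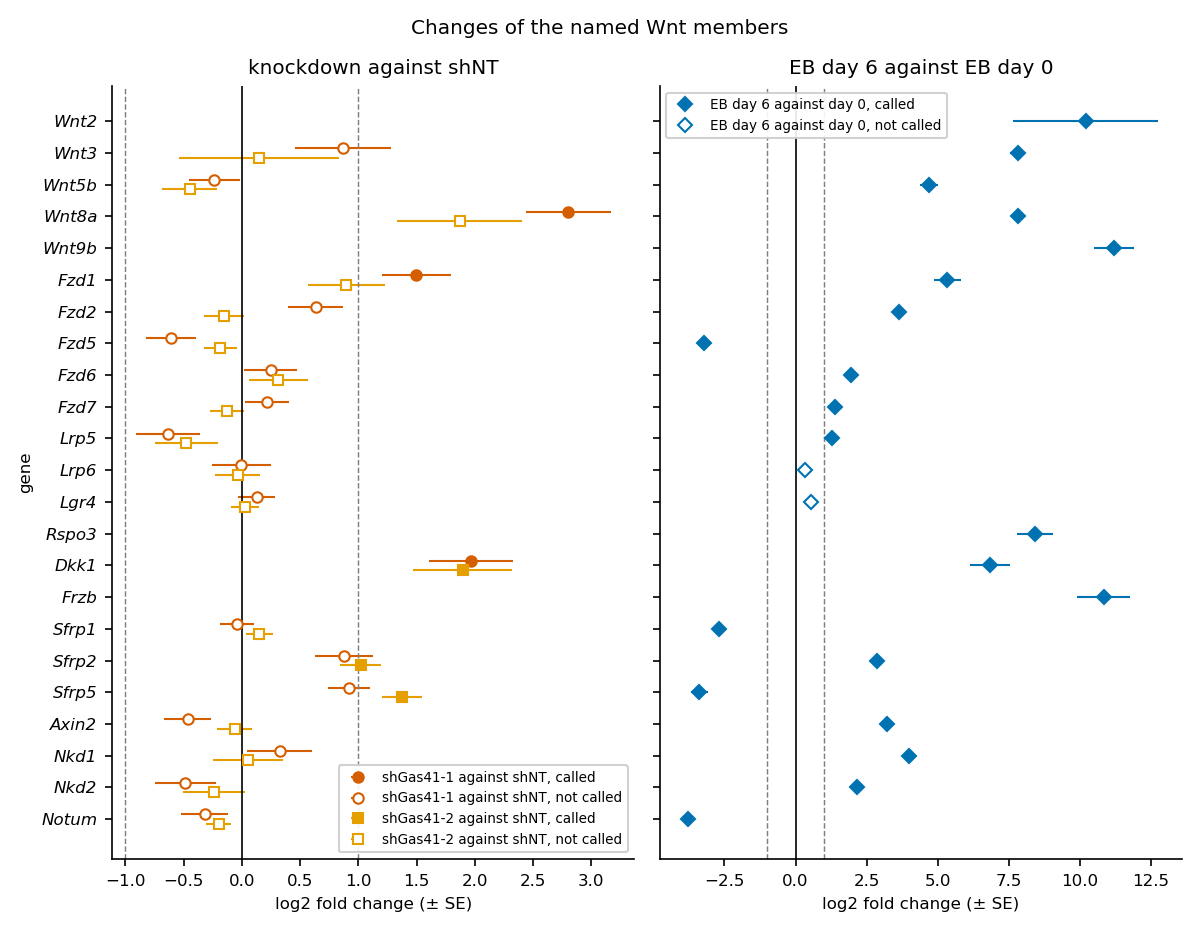
Log2 fold change with its standard error (SE) for the 23 members named by rule, with each shRNA against shNT (left) and at EB day 6 against day 0 (right). Filled symbols passed the FDR and fold thresholds and dashed lines mark a 2-fold change, and changes of more than 4 on the log2 scale are seen at EB day 6 and not with the shRNAs. Wnt2 and Wnt9b had 0 counts at EB day 0, so that their fitted values are no measure of size. Wnt2, Wnt9b, Rspo3 and Frzb had too few counts to be tested in the KDs.

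Of the 5 secreted antagonists tested, 1 was called up with shGas41-1 (Dkk1) and 3 with shGas41-2 (Dkk1, Sfrp2 and Sfrp5). Of all genes, 7.9% and 3.96% were called up. Sfrp4, a secreted antagonist outside this list, was called down with both shRNAs and is described below. Dkk1 (mm9, chr19:30620353-30624155, minus strand), which blocks the Lrp co-receptors, was called with both, where 3.55% of the 18049 genes tested with both rose with both. Its level was 0.101, 0.115 and 0.0967 CPM in the shNT libraries, 0.412, 0.319 and 0.448 CPM with shGas41-1 and 0.294 and 0.449 CPM with shGas41-2. All 5 KD libraries lay above all 3 controls, on between 6 and 36 counts per library. Among all genes tested, 18.1% were higher in every shGas41-1 library than in every control and 18.2% in every shGas41-2 library, and 24.1% and 32% were lower. The log2 fold change was 1.97 (SE 0.36, FDR = 0.00846) with shGas41-1 and 1.90 (SE 0.42, FDR = 0.0332) with shGas41-2. Dkk1 and Wnt8a passed the filter on low counts only through the KD libraries, and leaving out any library other than shNT replicate 1 ended the call of Dkk1 with shGas41-2 (FDR between 0.0625 and 0.276).

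Sfrp5 and Sfrp2 encode soluble Frizzled-like proteins that bind Wnt ligands. Sfrp5 (mm9, chr19:42272461-42276742, minus strand) stood at 2.40, 3.14 and 2.87 CPM in shNT cells, 5.15, 5.57 and 4.4 CPM with shGas41-1 and 6.39 and 7.38 CPM with shGas41-2. No KD library overlapped the controls. The log2 fold change of Sfrp5 was 1.37 (SE 0.17, FDR = 0.00420) with shGas41-2 and 0.92 (SE 0.18, FDR = 0.0103) with shGas41-1, the latter under the fold threshold. The call with shGas41-2 was just missed without shGas41-2 replicate 2 (FDR = 0.0510). Sfrp2 stood at 4.39, 3.62 and 3.07 CPM with shNT, 8.06, 7.22 and 4.14 CPM with shGas41-1 and 7.05 and 7.08 CPM with shGas41-2. The shGas41-1 replicate 3 library was the only KD library within the range of the controls. Its log2 fold change was 0.88 (SE 0.25, FDR = 0.0407) and 1.02 (SE 0.18, FDR = 0.0139), so that both shRNAs passed the FDR and shGas41-2 alone passed the fold threshold. For Sfrp2 the call with shGas41-2 was lost under scaling by total counts (0.938) and without any 1 library other than shNT replicate 1. A predicted gene on the opposite strand shares 347 of the 2153 exon bases of Sfrp2, and whether counting used the strand is not given in the sources used here, so reads of the pair cannot be told apart. Sfrp1, the most abundant antagonist, ranged from 177 to 224 CPM in the controls, 151 to 218 with shGas41-1 and 206 to 218 with shGas41-2, with log2 fold changes of -0.039 and 0.15 that did not pass the test.

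The upstream sequences of Dkk1 and Sfrp5 are shown because these were the antagonists called with the larger changes. They are the 250 bases before the RefSeq start in GRCm38.p6, a later build than the mm9 of the count tables, with CpG dinucleotides in capitals. Dkk1 lies at chr19:30549497-30549746 and Sfrp5 at chr19:42202253-42202502, both on the minus strand. They hold 6 and 13 CpG dinucleotides, compared with a median of 21 over the 36 upstream windows of the 33 members with an entry and of 6 over all 32851 windows in the table.
Dkk1: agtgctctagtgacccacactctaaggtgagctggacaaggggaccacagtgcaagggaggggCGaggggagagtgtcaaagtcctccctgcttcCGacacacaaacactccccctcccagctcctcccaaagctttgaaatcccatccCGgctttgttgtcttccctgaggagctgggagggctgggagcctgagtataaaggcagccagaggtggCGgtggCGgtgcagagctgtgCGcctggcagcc
Sfrp5: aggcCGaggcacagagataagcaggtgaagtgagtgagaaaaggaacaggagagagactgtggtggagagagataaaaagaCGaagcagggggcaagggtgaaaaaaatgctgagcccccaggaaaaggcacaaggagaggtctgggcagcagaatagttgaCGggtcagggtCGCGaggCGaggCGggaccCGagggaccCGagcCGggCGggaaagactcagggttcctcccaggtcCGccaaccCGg

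Among the ligands, Wnt8a (mm9, chr18:34701967-34707927, plus strand), a ligand of the early primitive streak, was the only one called with an shRNA. It stood at 0.0844, 0.115 and 0.124 CPM in shNT cells (5, 8 and 9 counts), 0.838, 0.881 and 0.479 CPM with shGas41-1 (63, 69 and 31 counts) and 0.564 and 0.200 CPM with shGas41-2 (46 and 16 counts). Each KD library was above each control, and shGas41-2 replicate 2 was the nearest to them. The log2 fold change was 2.80 (SE 0.36, FDR = 0.00302) with shGas41-1 and 1.87 (SE 0.54, FDR = 0.0664) with shGas41-2, which missed the FDR. Wnt6, the most abundant ligand of ESCs per length, went the other way with shGas41-1, from 2.84, 3.66 and 2.67 CPM to 1.34, 1.23 and 1.79 CPM. Its log2 fold change of -0.99 (FDR = 0.0260) was just short of the fold threshold, and with RLE size factors, scaling by total counts, no filter on low counts or DESeq2 it was called, at between -1.07 and -1.0. With shGas41-2 Wnt6 stood at 2.70 and 2.52 CPM, with a log2 fold change of -0.15 (FDR = 0.670). No other ligand passed the FDR with either shRNA. Wnt3 had log2 fold changes of 0.87 and 0.15, and its level was 0.253, 0.115 and 0.138 CPM with shNT, 0.266, 0.370 and 0.232 CPM with shGas41-1 and 0.0613 and 0.287 CPM with shGas41-2. Wnt5b stood at 1.11 to 1.34, 0.892 to 1.06 and 0.822 to 0.899 CPM in these groups.

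Fzd1 was the only receptor called. Its level was 0.321, 0.577 and 0.428 CPM with shNT, 1.52, 1.03 and 1.04 CPM with shGas41-1 and 0.895 and 0.674 CPM with shGas41-2, again with no overlap. The log2 fold change was 1.5 (SE 0.30, FDR = 0.0115) with shGas41-1 and 0.90 (SE 0.33, FDR = 0.122) with shGas41-2. Without shGas41-1 replicate 1 the FDR with shGas41-1 was 0.0516. The most abundant receptor, Fzd5 (mm9, chr1:64777134-64784324, minus strand), stood at 232, 254 and 325 CPM in the controls, 199, 198 and 110.4 CPM with shGas41-1 and 224 and 226 CPM with shGas41-2. In CPM, every KD library was below every control, and shGas41-1 replicate 3 was the lowest. Of all genes, 24.1% were lower in every shGas41-1 library than in every control and 32% in every shGas41-2 library. CPM are scaled by total counts alone, unlike the fit, and with shGas41-2 the gap was small (226 against 232 CPM). The log2 fold changes of Fzd5, -0.61 (SE 0.21, FDR = 0.0795) and -0.18 (SE 0.14, FDR = 0.436), did not pass the test. Fzd7 stood at 89.9, 105 and 127 CPM with shNT, 125, 143 and 86.9 CPM with shGas41-1 and 91.6 and 94.6 CPM with shGas41-2, and its groups overlapped. Fzd2 and Fzd6 stood at 4.61 to 5.73 and 6.86 to 10.8 CPM with shNT, and neither passed the test with either shRNA.

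As a share of all Frizzled transcripts on the per-length scale, Fzd5 made up 53.7 to 56.7% in shNT cells, 36.2 to 42.5% with shGas41-1 and 51.6 to 52.6% with shGas41-2. The share of Fzd7 was 30.0 to 32.3%, 38.7 to 42.3% and 30.4 to 31.7%. In these libraries the Fzd5 share was lower in every KD library than in every control library, and lower with shGas41-1 than with shGas41-2. The shares were not tested, and the gap with shGas41-2 was small (52.6 against 53.7%). Fzd5 itself was not called with either shRNA or between them. The co-receptors did not pass the test: Lrp5 stood at 30.1, 43.7 and 61.8 CPM with shNT, 28.2, 35.9 and 19.0 CPM with shGas41-1 and 27.6 and 33.9 CPM with shGas41-2, with overlapping groups. Lrp6 stood at 40, 44.1 and 64.1 CPM with shNT, 56.1, 56.1 and 29.0 CPM with shGas41-1 and 47.9 and 43.5 CPM with shGas41-2, and the sign of its small log2 fold changes (-0.0041 and -0.035) changed when single libraries were left out. Lgr4, the main Lgr receptor of these cells, stood at 50.4, 44.7 and 55.9 CPM with shNT, 58.2, 59.2 and 39.5 CPM with shGas41-1 and 50.5 and 46.5 CPM with shGas41-2. Its log2 fold changes were 0.13 and 0.027. Lgr5 had a log2 fold change of 0.99 with shGas41-1 (FDR = 0.0224), under the fold threshold, and of 0.86 with shGas41-2 (FDR = 0.0714).

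The 4 feedback targets, whose transcription is known to follow β-catenin activity, gave no call with either shRNA. Axin2 (mm9, chr11:108781663-108812097, plus strand), a scaffold of the complex that degrades β-catenin, stood at 11.1, 12.1 and 14.8 CPM in shNT cells, 10.3, 9.94 and 5.96 CPM with shGas41-1 and 11.6 and 11.4 CPM with shGas41-2. Its log2 fold change was -0.47 (SE 0.21, FDR = 0.143) with shGas41-1 and -0.062 (SE 0.15, FDR = 0.821) with shGas41-2. Notum, an enzyme that removes the lipid of Wnt ligands, stood at 25.8, 24.4 and 22.8 CPM with shNT, 20.6, 23.1 and 12.2 CPM with shGas41-1 and 20.8 and 19.3 CPM with shGas41-2 (log2 fold changes -0.32 and -0.20). The library shGas41-1 replicate 3 was the lowest of the KD libraries for both genes. Nkd1 and Nkd2, which bind Dishevelled and dampen signalling, had log2 fold changes of 0.32 and -0.49 with shGas41-1 and of 0.052 and -0.24 with shGas41-2. Their levels were 0.895 to 1.75 and 2.03 to 3.80 CPM with shNT, 1.27 to 1.97 and 1.51 to 2.29 CPM with shGas41-1, and 1.29 to 1.32 and 2.21 to 2.54 CPM with shGas41-2. The FDR of the 4 genes lay between 0.143 and 0.929 over both shRNAs.

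**Figure D3:**
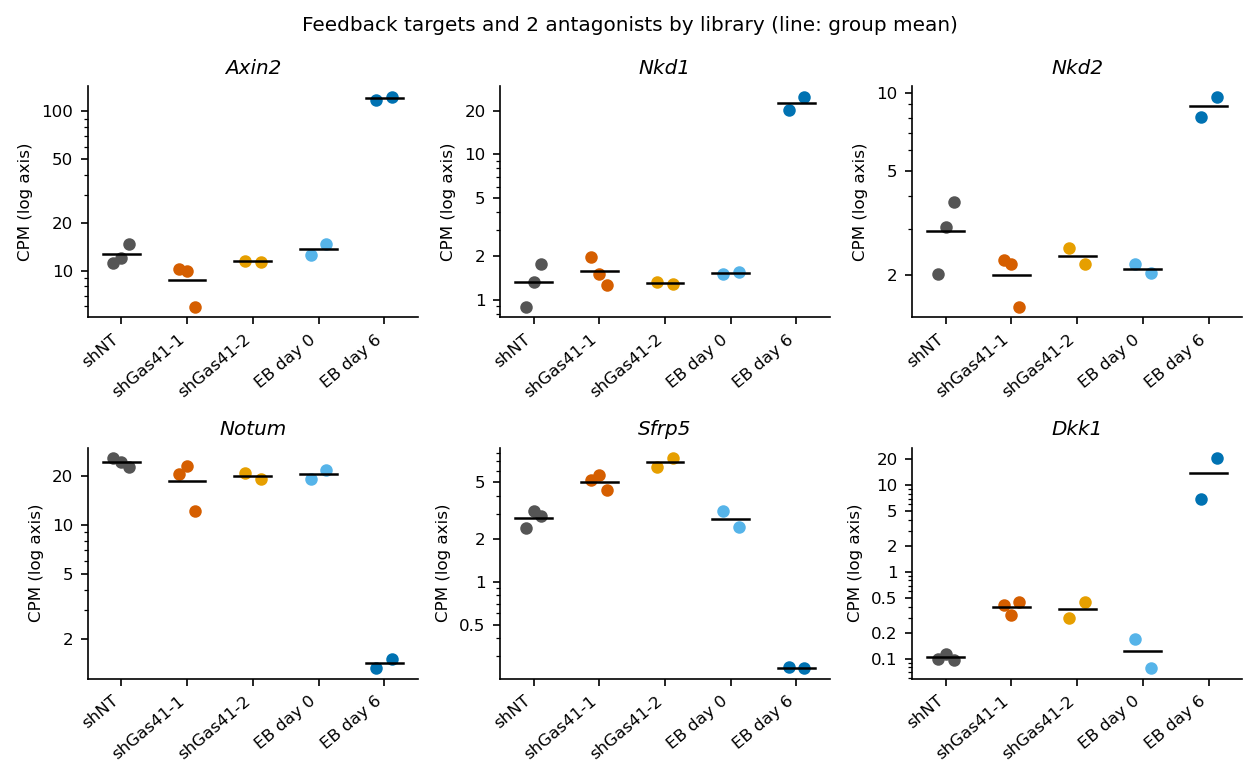
CPM in each library (points, log axes) and group means (lines) of the feedback targets Axin2, Nkd1, Nkd2 and Notum and of the antagonists Sfrp5 and Dkk1. Sfrp5 is above the controls in all KD libraries and at 0.247 to 0.252 CPM at EB day 6, and Notum is the only feedback target that is lower at EB day 6.

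When the 2 shRNAs were compared directly, 0 of the 41 members tested and 0 of all 19146 genes were called by edgeR (0%), 4 members and 1348 genes had an unadjusted p under 0.05, and DESeq2 called 0 members, and 39 genes higher and 32 lower. Without shGas41-1 replicate 3 edgeR again called 0 members and 0 genes, and 6 members and 1679 genes had an unadjusted p under 0.05. The calls made with 1 shRNA alone (Wnt8a, Fzd1, Sfrp2 and Sfrp5) are therefore not shown to differ between the shRNAs. For Wnt8a the difference was 0.94 (SE 0.44), for Fzd1 0.61 (SE 0.30), and for Sfrp5 -0.45 (SE 0.18). The summed level of the 5 neural markers listed in the tables went from 10.8 to 11.4 CPM with shNT to 17.6 to 22.7 CPM with shGas41-1 and 12.3 to 14.7 CPM with shGas41-2, and that of 6 endoderm markers from 2.79 to 3.48 to 3.57 to 6.76 and 4.78 to 5.74 CPM. Most of the neural difference was Pax6, which stood at 3.73, 1.67 and 1.26 CPM with shNT, 10.1, 11.0 and 12.5 CPM with shGas41-1 and 4.92 and 4.46 CPM with shGas41-2. Nes, the most abundant of the list with shNT, stood at 7.40 to 10.1, 4.73 to 11.4 and 7.22 to 10.2 CPM in the same groups. The 7 streak and mesoderm markers summed to 12.3 to 15.3, 5.59 to 10.2 and 10.2 to 11.9 CPM. Their largest part was Eomes (6.70 to 11.6, 2.70 to 5.25 and 4.90 to 5.91 CPM). Eomes and Tbx6 were called down with shGas41-1 and not with shGas41-2. T was higher in every shGas41-1 library (0.412 to 0.575 CPM) than in every control (0.207 to 0.388 CPM) but was not called. Mixl1, Mesp1 and Kdr overlapped the controls with both shRNAs. The 6 fibroblast markers summed to 7.99 to 13.9, 4.19 to 6.13 and 9.21 to 9.71 CPM. Most of that was Thy1 (7.31 to 12.7, 3.80 to 5.03 and 8.41 to 8.89 CPM), called down with shGas41-1 and not with shGas41-2. Of the defining markers, Postn was at 0 in all shNT and KD libraries, Dcn in all shNT and shGas41-2 libraries and Msgn1 in all shGas41-1 libraries. The part of other cell types in the changes of the Wnt genes was not tested.

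The second question was how the same genes change when control ESCs differentiate as EBs. Most of them did. Of 44 members tested, 28 rose and 8 fell at EB day 6, where 16.6% of all 18287 genes rose and 14.7% fell, 31.3% in all. By the FDR alone, 40 members and 58.9% of all genes passed. By role, 12 of 16 ligands tested rose and 2 fell, 7 of 12 receptors rose and 1 fell, 3 of 6 R-spondins and Lgr receptors rose and 1 fell, 3 of 6 antagonists rose and 3 fell, and 3 of 4 feedback targets rose and 1 fell. The median log2 fold change was 1.95 over the members tested and -0.0028 over all genes. Of the members tested, 6 (Frzb, Rspo3, Wnt2, Wnt9b, Wnt10b and Wnt16) had passed the filter only through the EB day 6 libraries, and 5 of them were called. Without EB day 6 replicate 3 the counts were 27 and 7, and without replicate 2 they were also 27 and 7. Without EB day 0 replicate 3 they were 18 and 5.

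Among ligands detected at EB day 0, Wnt3 and Wnt8a, both ligands of the primitive streak, showed the largest rises. Wnt3, which is needed for the streak to form, went from 0.224 and 0.471 CPM in the EB day 0 libraries to 64.4 and 81.0 CPM in the EB day 6 libraries (log2 fold change 7.81, SE 0.28, FDR = 7.74e-06). Wnt8a went from 0.140 and 0.204 CPM to 41.4 and 32.8 CPM (7.83, SE 0.23, FDR = 4.42e-06). Wnt5b, a ligand best known for β-catenin-independent signalling, went from 0.812 and 0.973 CPM to 16.2 and 27.3 CPM (4.70, SE 0.31, FDR = 5.96e-05). These 3 ligands led the family per length at EB day 6, with 23.6 ± 3.82 (SD, n = 2), 21.3 ± 3.51 (SD, n = 2) and 8.29 ± 2.98 (SD, n = 2) CPM per kb, and Wnt3 and Wnt8a differed from each other by less than the spread between the libraries. At EB day 0 the most abundant ligand was Wnt6, which made up 37.6 to 43.6% of all ligand transcripts there and 2.03 to 2.88% at EB day 6. Its level was 4.37 and 3.37 CPM before and 2.57 and 4.49 CPM after, with overlapping groups (log2 fold change -0.044, FDR = 0.911).

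A further set of ligands was not detected at EB day 0. Wnt9b, Wnt2 and Wnt10b had 0 counts in both EB day 0 libraries. At EB day 6 Wnt9b reached 3.40 and 4.93 CPM, Wnt2 0.237 and 3.94 CPM and Wnt10b 0.222 and 0.509 CPM. The EB day 6 means were set against 3 counts per library, which is 0.0446 CPM on average. The mean was at least 93.5-fold higher for Wnt9b, at least 46.9-fold for Wnt2 and at least 8.20-fold for Wnt10b. These bounds hold for the mean and not for each library, since Wnt2 and Wnt10b stood at 0.237 and 0.222 CPM in replicate 2. All 3 were called (FDR = 0.000111, 0.0181 and 0.00453). Wnt2, a ligand expressed in vascular and cardiac mesoderm, came almost wholly from replicate 3, and the call was lost without either EB day 0 library (FDR = 0.0919 and 0.177). The ligands that fell were Wnt10a, from 0.925 and 0.926 to 0.399 and 0.276 CPM, and Wnt7b, from 1.05 and 0.816 to 0.281 and 0.465 CPM. The fall of Wnt7b (-1.23, FDR = 0.0345) was not called by DESeq2 (FDR = 0.0650), and was lost without EB day 0 replicate 2 (FDR = 0.184), EB day 0 replicate 3 (FDR = 0.115) or EB day 6 replicate 2 (FDR = 0.124). The call of Wnt10a was lost without either EB day 0 library or EB day 6 replicate 3.

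Among the 33 members with an entry, Wnt5b and Wnt11 had an upstream window that held the motif CTTTGAT, a core of Tcf and Lef binding sites. It was searched on both strands in the 250 bases before each RefSeq start. The motif was found in 2 of the 36 member windows (5.56%) and in 3.21% of all windows, and no other motif was searched. Both genes also have windows without it, and which start these cells use was not tested. Members without an entry were not searched. The match near Wnt5b lies on the strand of the gene, starting at position -71 from the start (GRCm38.p6, chr6:119449431-119449477, minus strand). That near Wnt11 lies on the opposite strand at position -51 (chr7:98835041-98835087, plus strand). Both windows are shown with the motif in capitals.
Wnt5b: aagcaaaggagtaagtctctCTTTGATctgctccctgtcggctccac
Wnt11: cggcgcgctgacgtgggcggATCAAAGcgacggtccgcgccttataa
Wnt11, a ligand of convergent extension, rose from 1.19 and 1.32 CPM at EB day 0 to 10.1 and 6.94 CPM at EB day 6 (2.85, SE 0.24, FDR = 0.000155).

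The main Frizzled receptor differed between the 2 states. Fzd5 fell from 368 and 336 CPM at EB day 0 to 39.9 and 31.4 CPM at EB day 6 (-3.22, SE 0.13, FDR = 1.13e-05). Fzd7 rose from 122 and 136 CPM to 268 and 369.7 CPM (1.39, SE 0.16, FDR = 0.000574), a call that was just missed without EB day 0 replicate 3 (FDR = 0.0501). Fzd2 rose from 6.51 and 6.59 CPM to 75.9 and 77.3 CPM (3.63, SE 0.089, FDR = 2.42e-06). In none of these did the groups overlap, where 37.4% of all genes were higher and 45.4% lower in both EB day 6 libraries than in both EB day 0 libraries. Fzd5 made up 56.5 to 60.4% of the Frizzled transcripts per length at EB day 0 and 3.64 to 5.68% at EB day 6. The share of Fzd7 went from 28.8 to 33.0% to 55.1 to 61.6%, and that of Fzd2 from 2.03 to 2.11% to 17.1 to 20.6%.

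**Figure D4:**
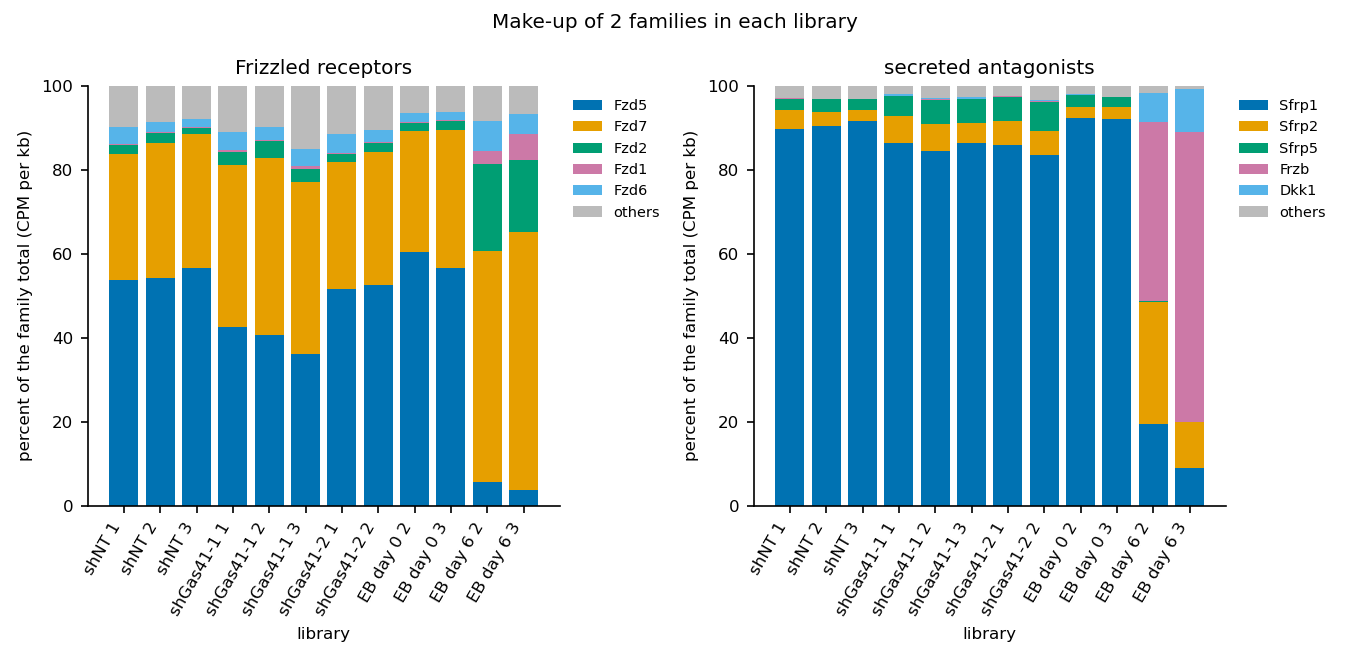
Share of each gene (percent of the family total in CPM per kb) among the 10 Frizzled receptors (left) and the 8 secreted antagonists (right) in the 12 libraries. Fzd5 and Sfrp1 are the largest parts of their families in the shNT and EB day 0 libraries and minor parts at EB day 6, and in the 3 shGas41-1 libraries Fzd5 and Fzd7 have similar shares.

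Fzd1 and Fzd6 also rose. Fzd1 went from 0.644 and 0.628 CPM to 14.5 and 33.9 CPM (5.34, SE 0.47, FDR = 0.000171), and Fzd6 from 8.03 and 6.83 CPM to 29.4 and 24.2 CPM (1.93, SE 0.15, FDR = 9.61e-05). Fzd8 and Fzd10 were called as well, with log2 fold changes of 2.00 and 1.13, although the annotation holds another gene model named Fzd10 that shares 2430 of its 3250 exon bases. Of the co-receptors, Lrp5 went from 47.6 and 41.7 CPM to 107 and 99.4 CPM (1.29, SE 0.093, FDR = 7.66e-05). Lrp6 stood at 94.9 and 77.8 CPM and 105 and 102 CPM, a difference of 0.35 that passed the FDR (FDR = 0.0287) but not the fold threshold. Fzd3, Fzd4 and Fzd9 were not called (0.84, 0.62 and -0.76).

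Among the R-spondins and their receptors, Rspo3, an R-spondin of the streak and early mesoderm, rose from 0.0560 and 0.110 CPM to 16.1 and 38.2 CPM (8.44, SE 0.64, FDR = 9.37e-05). Rspo3 had 4 and 7 counts at EB day 0 and passed the filter only through the EB day 6 libraries, so the size of its change is uncertain. Rspo1 and Rspo4 rose by 1.21 and 3.20 on the log2 scale. Lgr4 stood at 53.9 and 61.6 CPM at EB day 0 and 90.6 and 67.5 CPM at EB day 6, which passed the FDR (FDR = 0.0184) at a log2 fold change of 0.53. Lgr6 fell from 1.93 and 2.29 to 0.385 and 0.436 CPM (-2.27, SE 0.29, FDR = 0.000883), and Lgr5 did not pass the test (0.47, FDR = 0.143). At EB day 6 Lgr4 and Rspo3 stood at 13.4 ± 2.78 (SD, n = 2) and 11.3 ± 6.55 (SD, n = 2) CPM per kb, within the spread of Rspo3.

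The composition of the secreted antagonists changed. Sfrp1 fell from 234 and 214 CPM at EB day 0 to 34.2 and 31.4 CPM at EB day 6 (-2.69, SE 0.091, FDR = 6.92e-06). Sfrp5 fell from 3.14 and 2.40 CPM to 0.252 and 0.247 CPM (-3.38, SE 0.31, FDR = 0.000205), and Dkk3, a divergent Dkk, by 1.23 on the log2 scale. Frzb, a Wnt-binding protein of mesoderm and cartilage, rose from 0.0981 and 0.0314 CPM to 55 and 180.2 CPM (10.84, SE 0.93, FDR = 0.000151). Frzb had 7 and 2 counts at EB day 0 and passed the filter only through the EB day 6 libraries, so the size of its change is uncertain. Dkk1 rose from 0.168 and 0.0785 CPM to 6.89 and 20.5 CPM (6.84, SE 0.72, FDR = 0.000353), and Sfrp2 from 3.18 and 3.20 CPM to 25 and 19.1 CPM (2.87, SE 0.17, FDR = 3.81e-05). The call of Dkk1 was lost without EB day 0 replicate 3 (FDR = 0.0537). Sfrp1 made up 92.2 to 92.5% of the antagonist transcripts per length at EB day 0 and 8.88 to 19.6% at EB day 6, and Frzb 0.0183 to 0.0522% and 42.4 to 68.9%. The summed level of the family, 55.5 ± 3.48 (SD, n = 2) CPM per kb at EB day 0 and 60.4 ± 28.8 (SD, n = 2) at EB day 6, differed by less than the spread between the EB day 6 libraries.

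The feedback targets split. Axin2 rose from 12.6 and 14.8 CPM to 119 and 124 CPM (3.23, SE 0.11, FDR = 7.22e-06), with the closest agreement between the EB day 6 libraries of the 4 genes. Nkd1 rose from 1.5 and 1.55 CPM to 20.3 and 25 CPM (3.98, SE 0.18, FDR = 1.46e-05) and Nkd2 from 2.20 and 2.04 CPM to 8.03 and 9.66 CPM (2.15, SE 0.19, FDR = 0.000173). Notum fell from 19.3 and 21.8 CPM to 1.32 and 1.5 CPM (-3.78, SE 0.17, FDR = 1.43e-05), and its level per length went from 8.52 ± 0.727 (SD, n = 2) to 0.584 ± 0.0532 (SD, n = 2) CPM per kb while that of Axin2 went from 2.49 ± 0.291 (SD, n = 2) to 22.0 ± 0.695 (SD, n = 2). Genes on the opposite strand overlap 918 of the 2408 exon bases of Notum and 209 of the 5506 of Axin2. The upstream 250 bases of Axin2 (GRCm38.p6, chr11:108920099-108920348, plus strand) are shown because it is the most used transcriptional readout of the pathway. They hold 24 CpG dinucleotides, in capitals, and not the motif above.
Axin2: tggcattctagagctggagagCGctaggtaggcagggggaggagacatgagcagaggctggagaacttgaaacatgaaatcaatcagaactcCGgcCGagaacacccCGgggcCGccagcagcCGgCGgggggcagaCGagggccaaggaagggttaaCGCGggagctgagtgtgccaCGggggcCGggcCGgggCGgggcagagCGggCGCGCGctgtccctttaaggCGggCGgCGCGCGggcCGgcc

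The 2 EB day 6 libraries differed for some of these genes. Of the 44 members tested, 8 were 2-fold or more higher in replicate 3 than in replicate 2 and 0 were lower, where 1.76% and 1.59% of all genes were (ratios of CPM + 0.1). They were Wnt2 (12.0-fold), Wnt5a (4.71-fold), Frzb (3.27-fold), Dkk1 (2.94-fold), Wnt3a (2.42-fold), Wnt2b (2.39-fold), Rspo3 (2.37-fold) and Fzd1 (2.32-fold). Of 12 streak, mesoderm and endoderm markers tested, 7 were also 2-fold or more higher in replicate 3, among them Msgn1 (14.5-fold), Kdr (7.70-fold) and Sox17 (5.70-fold). The sum of the 7 streak and mesoderm markers was 1242 and 1802 CPM in replicates 2 and 3, that of the 6 endoderm markers 59.1 and 148 CPM, that of the 5 neural markers 174 and 171 CPM and that of the 6 fibroblast markers 10.2 and 10.6 CPM. The neural sum was mostly Nes (169.9 and 169.7 CPM), whereas Pax6 stood at 3.43 and 1.54 CPM. Within the fibroblast sum, Thy1 was lower in replicate 3 (5.98 and 4.42 CPM). Col1a1 (2.01 and 3.13 CPM) and Col1a2 (1.72 and 2.75 CPM) were higher there. The ratio of replicate 3 to replicate 2 was 1.22 for T and 1.18 for Eomes, both streak genes, and 1.26 for Wnt3, 0.791 for Wnt8a and 1.05 for Axin2. Whether cell composition sets these differences was not tested. The 8 members kept their direction against EB day 0 in either library.

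**Figure D5:**
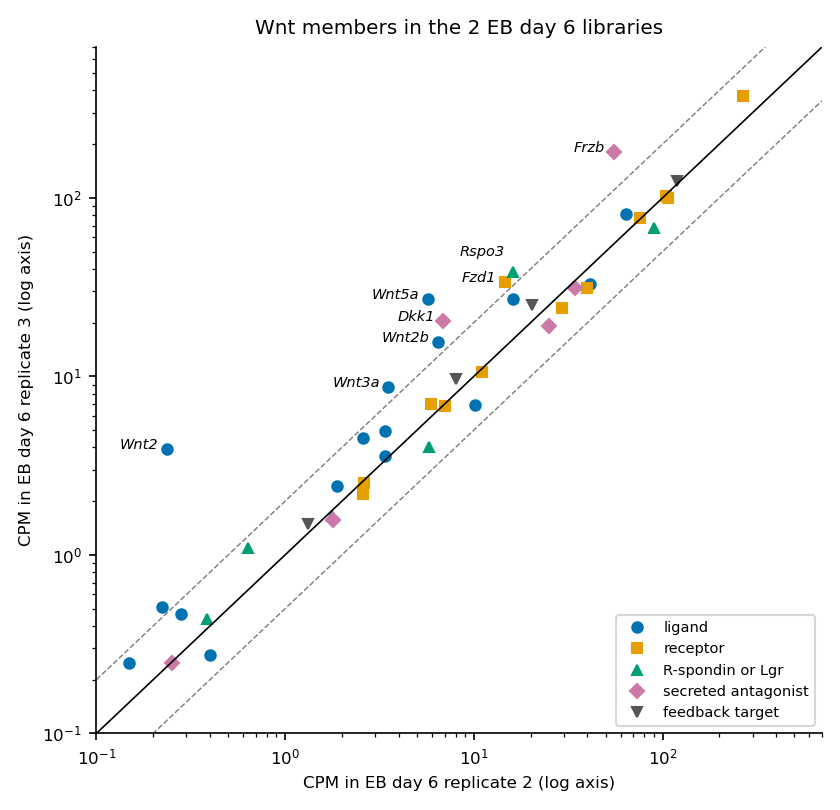
CPM of the 44 members tested in EB day 6 replicate 2 (horizontal) and replicate 3 (vertical), on log axes. The solid line marks equal values and the dashed lines a 2-fold difference, and the 8 named genes lie above the upper dashed line by the ratio of CPM + 0.1, while none of the 44 lies below the lower line. Wnt10b, unnamed at the lower left, is above the line in CPM alone.

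The responses to KD and to EB formation were then compared in 1 model over all 12 libraries, in which the 2 contrasts share no library. Of 45 members tested, 24 had a higher and 6 a lower response at EB day 6 than with shGas41-1 (22 and 6 without shGas41-1 replicate 3), against 15.5% and 17.8% of 19613 genes. The counts against shGas41-2 were 23 and 7, where 14.9% and 16.8% of genes were called. Frzb, Rspo3, Wnt9b and Wnt10b were among those higher against both shRNAs. They had passed the EB filter only through the EB day 6 libraries and were not tested in the main KD fits. Such genes could hardly be called lower, so these counts are not read as an excess. The antagonists called with the shRNAs showed 2 patterns. Dkk1 and Sfrp2 were higher with KD and higher at EB day 6, and the EB response was larger by 4.92 (FDR = 0.000582) and 2.03 (FDR = 0.000405) on the log2 scale than that to shGas41-1. Sfrp5 rose with shGas41-2 and fell at EB day 6, and the difference was -4.73 (SE 0.31, FDR = 5.88e-07) for shGas41-2 and -4.26 (SE 0.30, FDR = 1.04e-06) for shGas41-1. The EB response of Wnt8a exceeded that to shGas41-1 by 5.07 (FDR = 9.05e-05) and that of Fzd1 by 3.88 (FDR = 0.000113). For the feedback targets, the EB response of Axin2, Nkd1 and Nkd2 was larger by 3.74, 3.70 and 2.68, and that of Notum differed by -3.42, and all 4 were also called against shGas41-2.

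A list of 64 other genes of the pathway (Wnt secretion, alternative receptors, the destruction complex, Tcf and Lef factors and targets) gave few calls with the shRNAs. With shGas41-1, 4 of 62 tested rose (Lef1, Wls, Sp5 and Ror1) and 3 fell (Sfrp4, Celsr1 and Cdx1), and with shGas41-2, 1 rose (Lef1) and 1 fell (Sfrp4). Without shGas41-1 replicate 3 the first counts were 6 and 3. The shares called up were 6.45% with shGas41-1 and 1.61% with shGas41-2, against 7.9% and 3.96% of all genes, and the shares called down were 4.84% and 1.61%, against 2.4% and 0.869%. Lef1, which encodes a nuclear partner of β-catenin, stood at 1.23, 1.28 and 1.15 CPM with shNT, 6.01, 7.92 and 4.09 CPM with shGas41-1 and 3.10 and 4.07 CPM with shGas41-2. Its log2 fold change was 2.37 (SE 0.24, FDR = 0.00223) and 1.64 (SE 0.20, FDR = 0.00411). Sfrp4, another secreted antagonist, fell in every KD library, from 13.6, 13.1 and 12.8 CPM to 3.50, 3.95 and 3.65 CPM with shGas41-1 and 5.2 and 5.22 CPM with shGas41-2. Its log2 fold changes were -1.75 (SE 0.14, FDR = 0.00147) and -1.26 (SE 0.12, FDR = 0.00151). Wls, which carries Wnt ligands to the cell surface, rose by 1.5 with shGas41-1 (FDR = 0.0218) and Ror1, a receptor of Wnt5a, by 1.04 (FDR = 0.0298), on the log2 scale. Sp5, a direct target, rose by 1.49 (FDR = 0.0437). Celsr1, of planar cell polarity, fell by 1.53 (FDR = 0.0106) and Cdx1, a homeobox target, by 1.64 (FDR = 0.0148). With shGas41-1, the call of Sp5 was lost under scaling by total counts and without any 1 library other than shGas41-1 replicate 3. That of Ror1 was lost under scaling by total counts and without shNT replicate 2, shNT replicate 3 or shGas41-1 replicate 1, that of Wls without shNT replicate 2 or shGas41-1 replicate 1, and that of Cdx1 without shNT replicate 3. Those of Lef1, Sfrp4 and Celsr1 held without any 1 library. With shGas41-2, the call of Sfrp4 held without any 1 library, and that of Lef1 was lost without shGas41-2 replicate 2 (FDR = 0.0511).

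At EB day 6, 22 of 61 of these other genes rose and 3 fell (Dact2, Sfrp4 and Tle2), or 36.1% and 4.92%, against 16.6% and 14.7% of all genes. The largest changes were those of T (10.45, SE 0.19, FDR = 1.43e-06), Sp8 (7.24, SE 0.18, FDR = 2.59e-06), Sp5 (6.96, SE 0.33, FDR = 1.87e-05), Lef1 (6.36, SE 0.29, FDR = 1.56e-05) and Prickle1 (5.66, SE 0.10, FDR = 1.43e-06). T, Sp5, Sp8 and Lef1 encode transcription factors known as targets or partners of the pathway, and Prickle1 a component of planar cell polarity. T stood at 0.322 and 0.361 CPM at EB day 0 and 406 and 496 CPM at EB day 6, and Lef1 at 0.658 and 1.11 and 56.6 and 79.7 CPM.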

How the data were processed

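RNA-seq of 12 libraries was analysed from 3 deposited tables of raw read counts per gene. As given in the methods, the authors made these counts by aligning reads to mm9 with TopHat2 (2.0.10) and counting them over genes with HTSeq. A further 15 ChIP-seq samples were not analysed here. The tables also hold the authors' own log2 fold changes, p-values and FDR (9 columns), which were not used. The control labelled shCon is called shNT.

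Each comparison was fitted over all genes with edgeR (4.0.16) quasi-likelihood tests (R 4.3.3), after filterByExpr (minimum count 10, minimum total 15) and TMM scaling, with Benjamini-Hochberg adjustment. A gene was called at an FDR of 0.05 or less and a log2 fold change of at least 1 in size. The KD and EB responses were compared in 1 fit over all 12 libraries. Scripts were tested on simulated data. CPM are counts per 1000000 counts of each library, and levels between genes were compared per kb of exons (GENCODE models on mm9). Depth, between 59224537 and 81524773 counts, sets the precision, and floors of 3 counts cover counting error only. Alternatives were RLE size factors, total counts, no filter, DESeq2 (1.42.0), FDR alone, a replicate block and leaving out each library.

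Upstream sequences are from RefSeq (GRCm38.p6) and matched 33 of 50 members by symbol. Members, other pathway genes and markers were chosen with earlier results of these data known. By rule, the members given in every library were those called with either shRNA, the 3 largest called rises and the 3 largest called falls at EB day 6, members at 20 CPM or more in some group and the 4 feedback targets. Other members were named after their values were seen, where a count or a comparison turned on them. Of other pathway genes, those called with an shRNA and the 5 largest changes at EB day 6 were named.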

Additional observations from a re-analysis of the deposited data

Results flagged for a closer look

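The response of Sfrp5 differed in direction between Gas41 KD and EB formation. It rose with shGas41-2 and fell at EB day 6, and the EB response minus the shGas41-2 response was -4.73 on the log2 scale in the edgeR test of that difference. No group held 4 or more libraries, so single libraries were not screened as outliers.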

How the results depend on the processing

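With shGas41-1 the 3 members called up became 6 by FDR alone, and the 0 called down became 1 (Wnt6) with RLE size factors, total counts, no filter, DESeq2 or FDR alone. Over the fits that each left out a library, 2 to 7 members were called up and 0 to 1 down with shGas41-1, 0 to 4 up and 0 to 0 down with shGas41-2, 18 to 27 up and 5 to 7 down at EB day 6, and 0 to 0 in either direction between the shRNAs. In such fits the EB response was higher for 20 to 26 and lower for 6 to 7 members than that to shGas41-1, and higher for 21 to 24 and lower for 6 to 7 than that to shGas41-2. A group left with 1 library was assumed to vary like the others.

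For the other pathway genes, leaving out a library gave 1 to 6 up and 2 to 7 down with shGas41-1, 0 to 2 up and 1 to 4 down with shGas41-2, and 20 to 25 up and 1 to 4 down at EB day 6. With shGas41-1, total counts gave 2 up and 5 down, the replicate block 1 up and 1 down, and FDR alone 9 down. With shGas41-2, RLE size factors, no filter, DESeq2 and the replicate block each gave 2 up, total counts, no filter and DESeq2 each gave 2 down, and FDR alone gave 5 up and 3 down. At EB day 6 FDR alone gave 35 up and 8 down. The FDR alone is a looser threshold and can only add calls, and for the other settings the cause was not tested.

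Small log2 fold changes that were not called changed sign. Lrp6 with shGas41-1 ranged from -0.14 to 0.21 over the fits without 1 library. Sfrp1 with shGas41-1 ranged from -0.14 to 0.050 over the fits without 1 library. Axin2 with shGas41-2 ranged from -0.14 to 0.070 over the fits without 1 library and was 0.068 with the replicate block. Fzd6 with shGas41-2 ranged from -0.056 to 0.60 over the fits without 1 library. Fzd7 with shGas41-2 ranged from -0.23 to 0.018 over the fits without 1 library and was 0.018 with the replicate block. Lgr4 with shGas41-2 ranged from -0.051 to 0.11 over the fits without 1 library and was -0.053 with total counts. Lrp6 with shGas41-2 ranged from -0.16 to 0.20 over the fits without 1 library and was 0.20 with the replicate block. Nkd1 with shGas41-2 ranged from -0.16 to 0.31 over the fits without 1 library and was -0.028 with total counts. Wnt3 with shGas41-2 ranged from -1.36 to 0.87 over the fits without 1 library and was -0.072 with the replicate block.

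The replicate numbers were not taken to pair the libraries, since the labels name no shared culture or day. Only shGas41-1 had 3 same-numbered pairs, and these did not all correlate. The correlations of same-numbered deviations were 0.0050, 0.14 and -0.39 for shGas41-1, 0.34 and 0.24 for shGas41-2 and 0.055 for the EBs. With 2 libraries per EB group the deviations mirror each other, so both pairs give the same value. These correlations cannot settle whether the libraries were paired. In the shGas41-2 comparison, 1122 genes were called up with the block and 728 without it. With the block, Wnt8a with shGas41-2 passed (FDR = 0.0103), Fzd1 with shGas41-1 missed the FDR (FDR = 0.0512) and Sfrp2 with shGas41-2 missed the fold threshold (0.91). Wls, Ror1, Sp5, Celsr1 and Cdx1 with shGas41-1 missed the FDR with the block. Genes that reached about 10 counts in fewer libraries than the smallest group held were not tested in the main fits. Changes in them were not assessed there, and only the fits with no filter on low counts included them.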
